A study of Bos taurus with 5 samples.

Results

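The messenger RNAs for the proteins of the cytosolic ribosome were compared between early cattle embryos (Bos taurus) sired by low-performing bulls and those sired by high-performing bulls. Members were taken by symbol: genes named RPL followed by a digit or P for the large 60S subunit, and genes named RPS followed by a digit or A for the small 40S subunit, without the S6 kinases and RPS19BP1, which are not ribosomal proteins. This gave 84 of the 27607 genes in the table, 34 of the 40S subunit and 50 of the 60S subunit. Of these, 7 have names that end in L or L1, the mark of a duplicated gene, and are called paralogs here, while the other 77 are called canonical.

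The low-performing group held 2 pools and the high-performing group 3 pools, each of 100 embryos grown in vitro. Every pool is labelled as 4-cell stage, while the series text gives 2 to 4 cells. The protocol field names recombinant Wnt5A for every pool of either group, with no dose. The labels give no definition of performance, no breed, and no statement of whether the pools of a group had separate sires or cultures, so a p-value here reflects pool-to-pool spread only, and that spread may be technical.

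A ribosome is built from ribosomal RNA and about one copy of each protein of its small and large subunits. The small subunit reads the message, and the large subunit joins amino acids and lets the growing chain leave through a tunnel. Most mammalian ribosomal protein mRNAs begin with a terminal oligopyrimidine tract, a run of C and T through which the mTOR pathway and the RNA-binding protein LARP1 control their translation and storage. The embryo at these cleavage stages lives largely on ribosomes and messages inherited from the egg, and in cattle the main activation of the embryonic genome comes after them.

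Values are RPKM, reads per kilobase of gene per 1000000 reads counted in genes. They are per length of the annotated gene, which need not be the length of its mRNA, so levels of different genes are only roughly comparable. Reads in genes numbered 98684834 and 93659589 in low-performing pools 1 and 2, and 113100809, 67248924 and 90237317 in high-performing pools 1, 2 and 3. The 10 oocyte and early embryo markers checked, among them ZAR1, GDF9 and BTG4, were all above 1 RPKM, with summed levels of 18165 and 23579 RPKM in the low-performing pools and 11270 to 15383 RPKM in the high-performing pools. BTG4 made up most of that sum. The other 9 markers summed to 6349 and 6636 RPKM in the low-performing pools and 5250 to 6026 RPKM in the high-performing pools. Among them the groups overlapped for NLRP5, DPPA3, ZP2 and KPNA7. Of the markers of other cells, 7 of 11 for cumulus and granulosa cells reached 1 RPKM in some pool, with sums of 186 to 194 RPKM in the low-performing pools and 188 to 213 RPKM in the high-performing pools. For sperm it was 5 of 12 markers, with PRM2 and TNP1 at 0 in every pool and sums of 87.7 to 106 RPKM in the low-performing pools and 63.5 to 75.1 RPKM in the high-performing pools. For blood it was 3 of 8, with HBB at 0 in every pool and sums of 22.4 to 22.8 RPKM in the low-performing pools and 18.6 to 21.0 RPKM in the high-performing pools. A single marker made up most of each of these sums: STAR for cumulus and granulosa cells, LDHC for sperm and CSF1R for blood. The part that such cells, or the amount of RNA per cell, play in the values below was not tested, and in pooled embryos fewer cells and less RNA per cell cannot be told apart.

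Ribosomal protein mRNAs took 0.353% and 0.546% of the reads in genes in low-performing pools 1 and 2, and 0.283%, 0.255% and 0.234% in high-performing pools 1, 2 and 3. The pools did not overlap between the groups, and low-performing pool 2 stood farther from low-performing pool 1 than the high-performing pools stood from each other. With 95% Wilson intervals the share was 0.5446% to 0.5476% in low-performing pool 2 and 0.3519% to 0.3543% in low-performing pool 1, which covers counting error only, since the reads carry no molecular identifiers. Summed over the members, the low-performing pools averaged 4615 ± 1704 RPKM (SD, n = 2), which was 1.96 times the high-performing mean of 2356 ± 265 RPKM (SD, n = 3).

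The subunits stood in nearly the same proportion in every pool. The 40S genes held 0.165% and 0.252% of reads in low-performing pools 1 and 2, against 0.134%, 0.127% and 0.109% in high-performing pools 1, 2 and 3. The 60S genes held 0.188% and 0.294% in low-performing pools 1 and 2, against 0.148%, 0.128% and 0.125% in high-performing pools 1, 2 and 3. The ratio of summed 60S to summed 40S RPKM was 1.312 and 1.298 in the low-performing pools and 1.279, 1.143 and 1.288 in the high-performing pools. The lowest ratio, in high-performing pool 2, lay farther from the other high-performing pools than any of those lay from the low-performing ones. Averaged as log2(RPKM + 1) over the members tested, the 60S level minus the 40S level was -0.44 and -0.50 in low-performing pools 1 and 2, and -0.42, -0.54 and -0.47 in high-performing pools 1, 2 and 3. These differences overlapped between the groups.

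**Figure D1:**
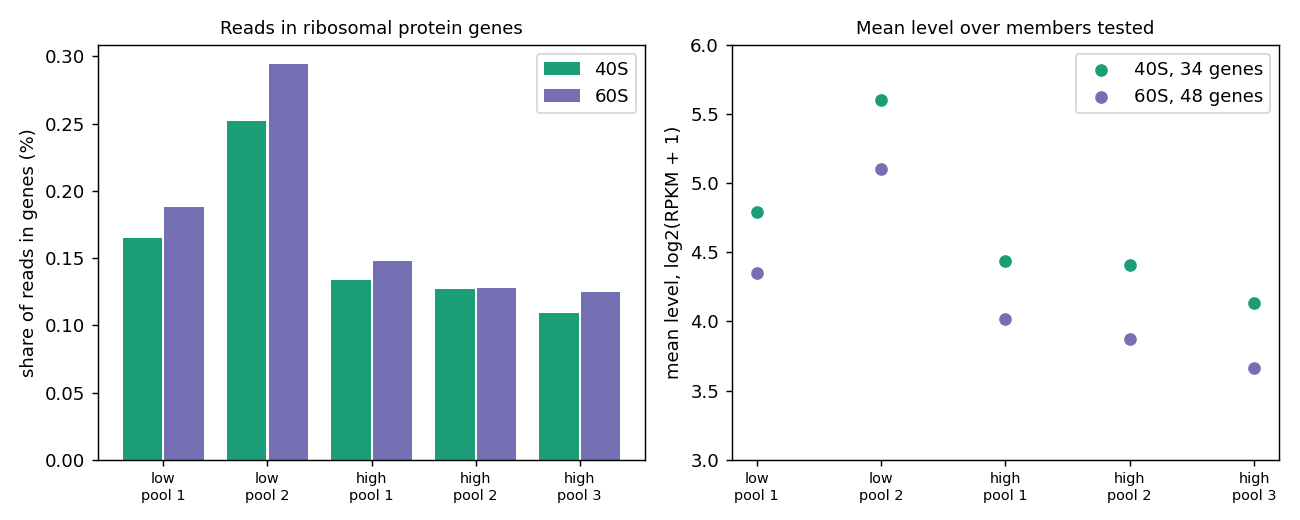
Left, the share of reads in genes (%) that fell in 40S and in 60S ribosomal protein genes, as bars for each of the 2 low-performing and 3 high-performing pools. Right, the mean level of the members tested in log2(RPKM + 1) per pool; the 40S points lie above the 60S points in every pool, and low-performing pool 2 is highest for either subunit.

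Within a subunit, the levels of single members were spread widely. Among the 40S genes the highest level was 116 times the lowest in low-performing pool 1 and 68.2 times in low-performing pool 2, and 84.9 to 130 times in the high-performing pools. The median member of the 40S subunit had a mean of 32.0 RPKM over the 5 pools, against 17.8 RPKM for the 60S subunit and 11.1 RPKM for all 12448 genes tested. The top 5 members held 33.5% and 31.7% of the summed level in the low-performing pools, and 29.3% to 32.6% in the high-performing pools. Log2 levels of the 82 members tested had a Pearson correlation of 0.972 between the low-performing pools and of 0.977 to 0.991 among the high-performing pools. Across the groups it ranged from 0.916, between low-performing pool 2 and high-performing pool 2, to 0.993, between low-performing pool 1 and high-performing pool 1; these points share their library, gene length and mappability, and are a description.

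At the top of the 60S subunit by mean over the 5 pools, RPL7A, a protein that lies near the tunnel exit (chromosome 11, 104255845 to 104259161, build ARS-UCD1.2), had 330 and 428 RPKM in low-performing pools 1 and 2, against 254, 219 and 214 RPKM in high-performing pools 1, 2 and 3. RPL26L1, a paralog, followed with a mean over all pools of 222 RPKM. By the same mean, the top of the 40S subunit held RPS2 at 170 RPKM, RPS27A at 145 RPKM and RPS13 at 107 RPKM. At the bottom of the 40S subunit stood RPS27, RPS26 and the longer of 2 genes named RPS29 (ENSBTAG00000052337), at 4.21, 2.18 and 2.16 RPKM, and of the 60S subunit RPL22, RPL34 and the paralog RPL22L1, at 2.11, 1.74 and 0.963 RPKM. Ribosomal protein genes have many near-identical processed copies in mammalian genomes, and the treatment of reads that match several places is not stated in the labels, which leaves the level of a single member uncertain where a copy exists. The exons of 8 of the 84 genes overlap another gene in the table, as RPL12 does with LRSAM1 and RPL35 with WDR38 on the opposite strand, and RPL30 with the small nucleolar RNA SNORA72 on its own strand. The libraries were stranded, but the labels do not state the strand setting of the counting.

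**Figure D2:**
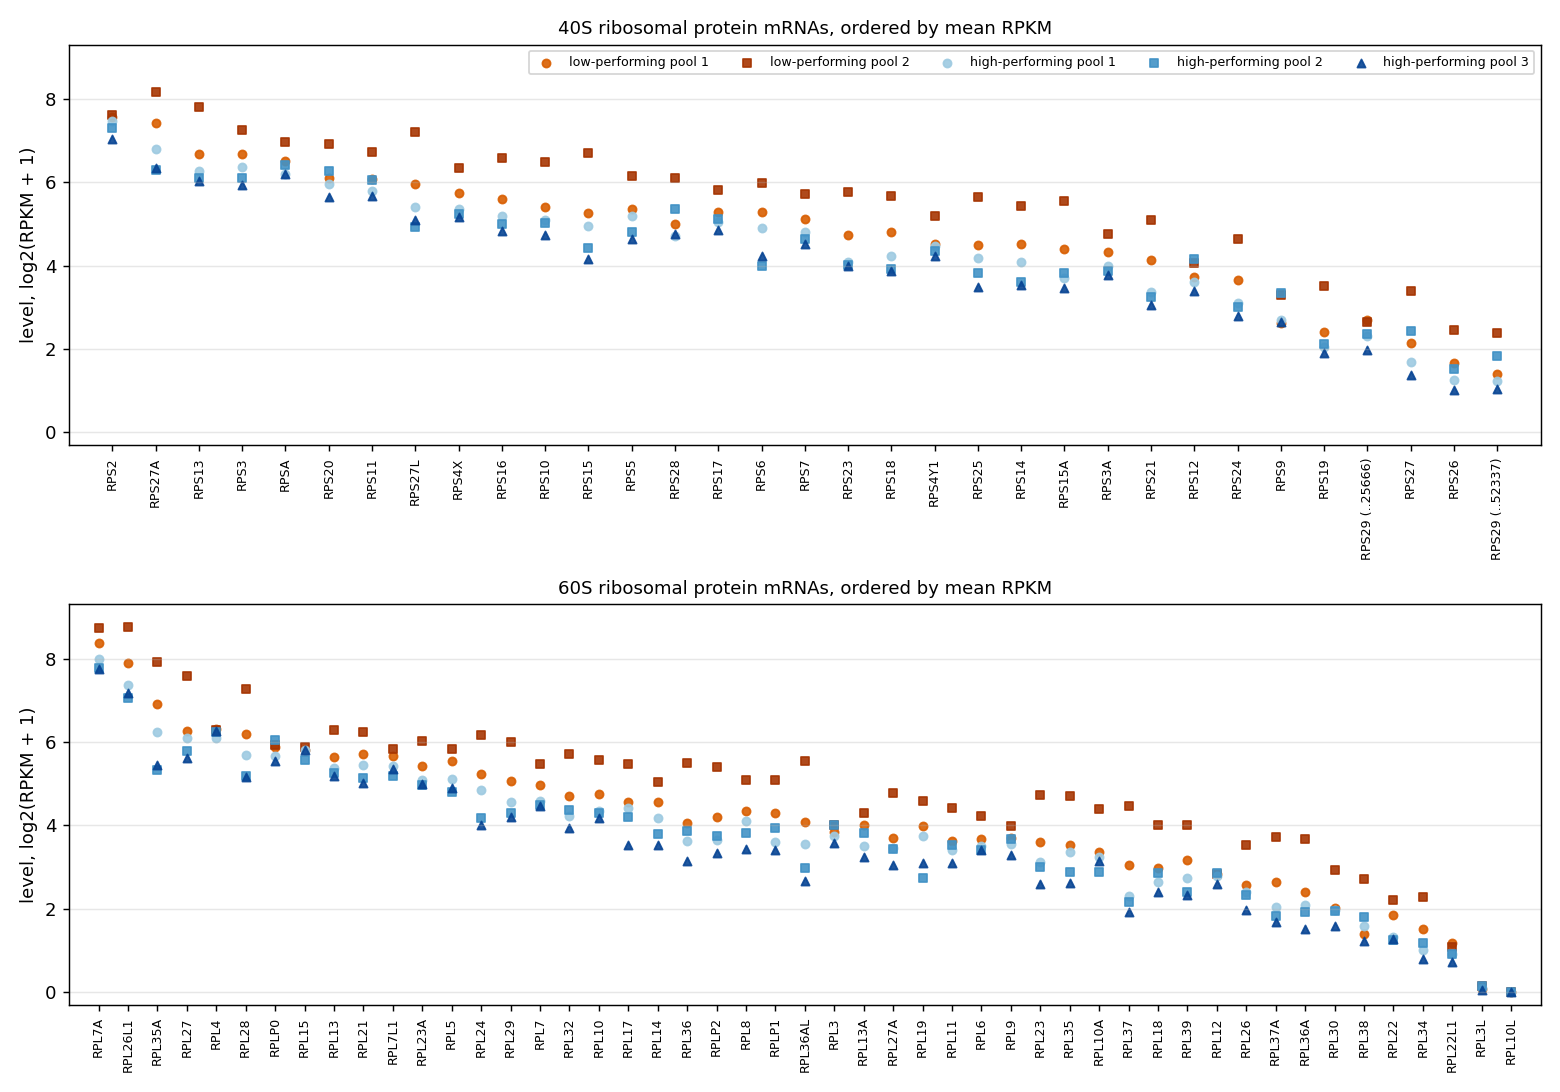
Level of genes of the 40S subunit (top) and of the 60S subunit (bottom) in log2(RPKM + 1), ordered by mean RPKM, with 1 point per pool (orange, low-performing; blue, high-performing). Low-performing pool 2 (dark orange squares) is the highest point for most genes, RPS2 and RPL7A have the highest mean of their subunits, and RPL10L lies at 0.

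Of the 84 members, 82 passed the filter of at least 1 RPKM in at least 2 pools and were tested. The genes left out were the paralogs RPL3L, at 0.0533 and 0.105 RPKM in the low-performing pools and 0.0365 to 0.0978 RPKM in the high-performing pools, and RPL10L, with 0 reads in every pool, which allows 3 reads at most. In human and mouse RPL3L is a gene of heart and skeletal muscle and RPL10L one of the testis. RPL22L1 passed only through the low-performing pools, at 1.26 and 1.13 RPKM against 0.888, 0.893 and 0.647 RPKM in the high-performing pools, so it had to differ in that direction.

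Ribosomal protein mRNAs of either subunit had higher levels in low-performing than in high-performing pools, by a similar amount, although no single member passed the adjusted test. The log2 fold change of a gene is its mean log2(RPKM + 1) in low-performing pools minus that in high-performing pools, a scale that understates the change of genes with low levels. The median over the 34 tested 40S genes was 0.86, with a range of 0.06 to 1.48, and the median over the 48 tested 60S genes was 0.90, with a range of 0.08 to 1.76. The 60S median minus the 40S median was 0.04. For all 12448 genes tested the median was -0.03. Both low-performing pools lay above every high-performing pool in 28 of 34 genes of the 40S and 43 of 48 of the 60S subunit. They lay below in 0 members. The 43 include RPL22L1, whose direction the filter fixed, and so does the 60S median. Among all genes tested the share above was 29.4% and the share below 29.3%. In the length classes up to 1500 bases described below, which hold most members, the share above was 53.1% to 62.0% of all genes. At an unadjusted p under 0.05 in limma, 27 genes of the 40S and 40 of the 60S subunit were higher, and 0 were lower. Of all genes, 19.0% were higher at that p, and 41.5% to 54.9% in the length classes up to 1500 bases. With Benjamini-Hochberg adjustment over all genes limma called 0 members and 0.0% of all genes, and the smallest adjusted p of a member was 0.0829. In the authors' deposited table, 58 of the 84 members were listed with an FDR under 0.05 and higher in low-performing pools, 22 of the 40S and 36 of the 60S subunit, with 0 lower, where 5.51% of all genes in that table were, and 11.0% of the genes tested here.

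The size of these differences rested on which low-performing pool was set against the high-performing ones. Without low-performing pool 1, the 40S median was 1.27 and the 60S median 1.30, and limma called 71 of the 82 members higher, 30 of the 40S and 41 of the 60S subunit, where 19.8% of all genes tested were called higher. Without low-performing pool 2, the medians were 0.47 and 0.51. Either fit leaves 1 low-performing pool, whose spread cannot be measured, so their calls are not given. A fit with the replicate number as a block called 35 members higher, where 5.11% of all genes tested were called higher. The replicate numbers are not known to pair the pools and were not taken as pairs. Low-performing pool 2 exceeded low-performing pool 1 in 79 of the 82 members, and in 5061 of all 12448 genes tested. The exceptions among the members were RPL4, RPL22L1 and the shorter RPS29 (ENSBTAG00000025666). The members' median of low-performing pool 1 minus low-performing pool 2 was -0.83 on the log2 scale. Low-performing pool 1 exceeded high-performing pool 1 in 79 of 82 members, by a median of 0.34. The high-performing pools also differed among themselves, since high-performing pool 1 was above high-performing pool 3 in 80 of 82 members, by a median of 0.31. The step between the groups nearest to each other was therefore about as large as the step within the high-performing group, while for all genes tested the medians of these 3 pairs were 0.09, 0.01 and 0.02 in size. For the pairs with high-performing pool 1, the matching counts over all genes were not computed.

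**Figure D3:**
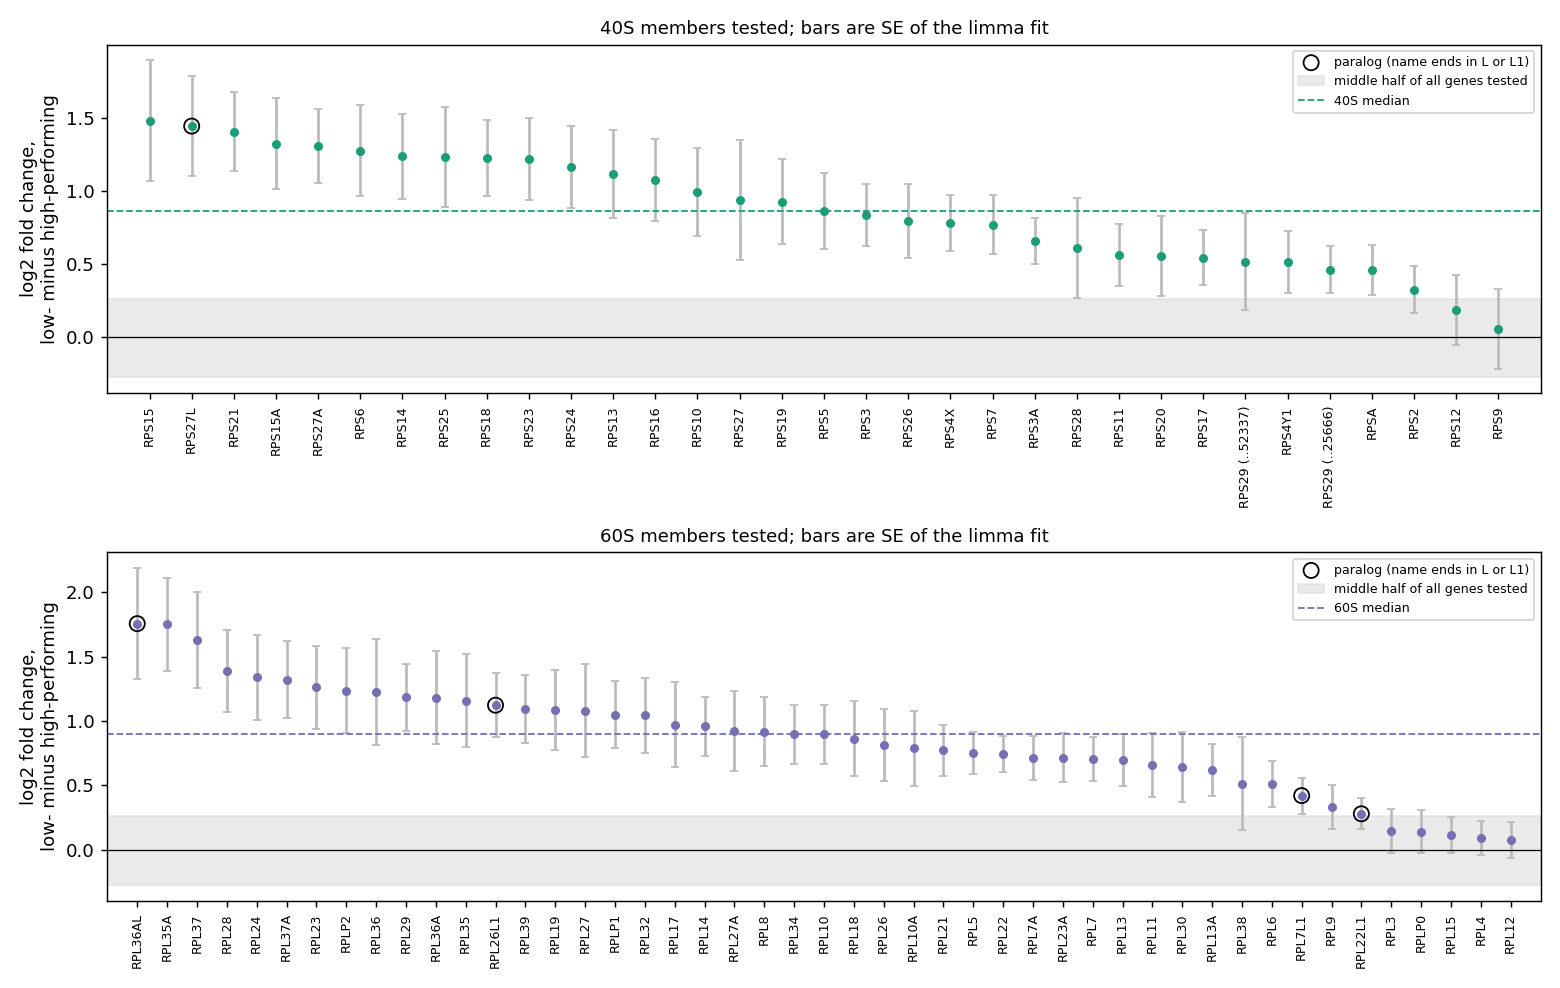
Log2 fold change (mean log2(RPKM + 1), low-performing less high-performing) with its SE, for tested 40S genes (top) and tested 60S genes (bottom), ordered by size, with paralogs ringed and the middle range of all genes tested (25th to 75th percentile, -0.27 to 0.26) shaded. All points lie above 0, where 46.7% of all genes tested did, and RPL22L1 had to by the filter. The medians over all tested members of each subunit (dashed) are 0.86 and 0.90, and RPS9, RPS12, RPL3, RPLP0, RPL15, RPL4 and RPL12 lie within the shaded band.

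Among the 40S proteins, RPS27A, which is made as a fusion with ubiquitin, had 169 and 287 RPKM in low-performing pools 1 and 2, against 110, 77.8 and 80.5 RPKM in high-performing pools 1, 2 and 3. Both low-performing pools were higher, with a log2 fold change of 1.31 ± 0.25 (SE; limma, adjusted p = 0.0829). RPS6, the protein phosphorylated by the S6 kinases downstream of mTOR, had 37.9 and 62.7 RPKM in the low-performing pools, against 28.7, 14.8 and 17.7 RPKM in the high-performing pools, for a log2 fold change of 1.27 ± 0.31 (SE). RPS15, which lies near the decoding site, had 37.6 and 103 RPKM in the low-performing pools, against 29.8, 20.3 and 16.8 RPKM in the high-performing pools. Its log2 fold change of 1.48 ± 0.41 (SE) was the largest among the 40S genes tested, and low-performing pool 2 had 2.74 times the level of low-performing pool 1. RPS27L and RPS21 followed it, at 1.44 ± 0.34 (SE) and 1.40 ± 0.27 (SE). RPS3, at the entry of the mRNA channel, had 102 and 152 RPKM in the low-performing pools, against 80.8, 67.6 and 60.6 RPKM in the high-performing pools. RPS13 had 102 and 224 RPKM in the low-performing pools, against 75.7, 67.7 and 64.1 RPKM in the high-performing pools. RPSA, a laminin receptor precursor that becomes part of the 40S subunit, had 89.7 and 123 RPKM in the low-performing pools, against 72.8, 83.8 and 72.2 RPKM in the high-performing pools, a smaller log2 fold change of 0.46 ± 0.17 (SE).

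The 40S genes with the smallest differences were RPS9, RPS12 and RPS2. RPS9 had 5.15 and 8.74 RPKM in low-performing pools 1 and 2, against 5.51, 9.15 and 5.23 RPKM in high-performing pools 1, 2 and 3. Its groups overlapped, with high-performing pool 2 above both low-performing pools, and its log2 fold change of 0.06 ± 0.27 (SE) turned to -0.27 without low-performing pool 2. RPS12 had 12.3 and 15.7 RPKM in the low-performing pools, against 11.1, 16.8 and 9.41 RPKM in the high-performing pools, again with high-performing pool 2 the highest. RPS2, whose mean over the 5 pools was the highest of the 40S genes although RPS27A was above it in low-performing pool 2, had 188 and 196 RPKM in the low-performing pools, against 176, 157 and 130 RPKM in the high-performing pools. Its groups did not overlap, but its log2 fold change was 0.32 ± 0.16 (SE; limma, adjusted p = 0.187).

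Among the 60S proteins the largest differences were those of the paralog RPL36AL, described with its partner, and of RPL35A and RPL37. RPL35A, a gene mutated in some patients with Diamond-Blackfan anaemia, had 120 and 242 RPKM in low-performing pools 1 and 2, against 74.7, 39.1 and 42.7 RPKM in high-performing pools 1, 2 and 3. Its log2 fold change was 1.75 ± 0.36 (SE). RPL37, a small zinc-finger protein near the tunnel exit, had 7.33 and 21.1 RPKM in the low-performing pools, against 3.93, 3.51 and 2.79 RPKM in the high-performing pools, for a log2 fold change of 1.63 ± 0.37 (SE). Of the summed member level, RPS2 held 4.45% in the low-performing and 6.54% in the high-performing pools, the largest downward difference in share among the members.

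The proteins of the stalk, which recruits the elongation factors, did not stand together. RPLP1 had 18.7 and 33.2 RPKM in low-performing pools 1 and 2, against 11.2, 14.3 and 9.56 RPKM in high-performing pools 1, 2 and 3. RPLP2 had 17.5 and 41.5 RPKM in the low-performing pools, against 11.5, 12.4 and 9.04 RPKM in the high-performing pools. For these acidic proteins the groups did not overlap, and the log2 fold change was 1.05 ± 0.26 (SE) for RPLP1 and 1.23 ± 0.33 (SE) for RPLP2. RPLP0, the stalk base to which they bind, had 57.7 and 59.6 RPKM in the low-performing pools, against 49.6, 65.2 and 46.0 RPKM in the high-performing pools. Its groups overlapped, with a log2 fold change of 0.14 ± 0.17 (SE). RPL5 and RPL11, which enter the large subunit together with 5S rRNA and restrain MDM2 when ribosome assembly is disturbed, stood between those extremes. With a log2 fold change of 0.75 ± 0.16 (SE), RPL5 had 45.7 and 55.7 RPKM in the low-performing pools, against 33.4, 26.7 and 28.9 RPKM in the high-performing pools. With one of 0.66 ± 0.25 (SE), RPL11 had 11.3 and 20.2 RPKM in the low-performing pools, against 9.70, 10.6 and 7.61 RPKM in the high-performing pools. In both genes the low-performing pools were the highest.

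Beside RPLP0, the 60S genes with the smallest differences were RPL12, RPL4, RPL15 and RPL3. RPL4, which lines the tunnel, had 78.2 and 76.7 RPKM in low-performing pools 1 and 2, against 67.1, 74.9 and 75.7 RPKM in high-performing pools 1, 2 and 3, for a log2 fold change of 0.09 ± 0.13 (SE). RPL3, which lies close to the peptidyl transferase centre, had 13.3 and 15.2 RPKM in the low-performing pools, against 12.3, 15.2 and 11.0 RPKM in the high-performing pools, for a log2 fold change of 0.15 ± 0.17 (SE). RPL15 had 55.3 and 57.9 RPKM in the low-performing pools, against 55.4, 46.6 and 55.0 RPKM in the high-performing pools, for a log2 fold change of 0.12 ± 0.14 (SE). RPL12, which sits at the base of the stalk, had 6.08 RPKM in both low-performing pools, against 5.91, 6.30 and 4.99 RPKM in the high-performing pools, for a log2 fold change of 0.08 ± 0.14 (SE). The low-performing pools were close to each other in these genes, as they were in RPLP0, RPS2 and a few others: RPL4 in low-performing pool 2 was at 0.981 times low-performing pool 1, RPL15 at 1.05 times and RPL3 at 1.15 times. In all, the groups overlapped for 11 of the 82 members, where 29.4% of all genes tested lay wholly above and 29.3% wholly below. In 10 of the 11 high-performing pool 2 was the highest of its group, against 28 of the 82 tested. The 11 are those where a high-performing pool reached a low-performing one, so a high maximum in that group was built in. How often high-performing pool 2 was the highest among all genes was not computed, and the cause of the overlap was not tested. Without high-performing pool 2, the low-performing pools were above the others in 79 of 82 members, in place of 71. Leaving out a high-performing pool can only keep or raise such a count. The share of all genes with this pattern was not computed without that pool.

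Paralogs had the higher RPKM in 4 of the 5 pairs in which both genes passed the filter. How reads that match several places were counted is not stated, so the level of either copy and their ratio are uncertain. RPL26L1 (chromosome 20, 4716985 to 4723653, 4 exon blocks) had 238 and 430 RPKM in low-performing pools 1 and 2, against 165, 133 and 143 RPKM in high-performing pools 1, 2 and 3. RPL26 (chromosome 19, 27974414 to 27979325), its canonical partner at the tunnel exit, had 4.90 and 10.5 RPKM in the low-performing pools, against 4.26, 4.02 and 2.89 RPKM in the high-performing pools. RPL26L1 was thus at 48.5 and 40.9 times RPL26 in the low-performing pools and at 38.7, 33.2 and 49.3 times in the high-performing pools, so the ratios overlapped on the RPKM scale. RPS27L (chromosome 10, 46889250 to 46892617), which the p53 protein can induce in human cells, had 61.3 and 146 RPKM in the low-performing pools, against 41.3, 29.5 and 32.9 RPKM in the high-performing pools. RPS27 (chromosome 3, 16447956 to 16449471) had 3.40 and 9.47 RPKM in the low-performing pools, against 2.21, 4.40 and 1.58 RPKM in the high-performing pools. RPS27L was at 18.0 and 15.4 times RPS27 in the low-performing pools and at 18.7, 6.70 and 20.9 times in the high-performing pools, where high-performing pool 2 stood apart.

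RPL36AL (chromosome 10, 42657516 to 42657836, 1 exon block) is an autosomal copy without introns of the X-linked RPL36A (chromosome X, 50819017 to 50835992). It had 15.9 and 45.7 RPKM in low-performing pools 1 and 2, against 10.7, 6.86 and 5.32 RPKM in high-performing pools 1, 2 and 3. RPL36A had 4.25 and 11.7 RPKM in the low-performing pools, against 3.26, 2.81 and 1.87 RPKM in the high-performing pools. The log2 fold changes were 1.76 ± 0.43 (SE) for RPL36AL, the largest of all members tested, and 1.18 ± 0.36 (SE) for RPL36A. The paralog was at 3.75 and 3.91 times its partner in the low-performing pools and at 3.27, 2.44 and 2.84 times in the high-performing pools, a ratio that did not overlap between the groups. RPL7L1, a paralog found in the nucleolus, had 49.3 and 55.8 RPKM in the low-performing pools, against 42.2, 35.1 and 39.9 RPKM in the high-performing pools. RPL7 had 30.4 and 43.0 RPKM in the low-performing pools, against 23.0, 21.3 and 20.9 RPKM in the high-performing pools. Here the groups differed less in the paralog than in its partner, with ratios of 1.63 and 1.30 in the low-performing pools and 1.83, 1.64 and 1.91 in the high-performing pools. In the fifth pair the paralog had the lower RPKM. RPL22L1 was at 0.487 and 0.311 times RPL22 in the low-performing pools and at 0.586, 0.643 and 0.458 times in the high-performing pools.

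On the log2(RPKM + 1) scale the difference of the paralog-to-canonical ratio between low-performing and high-performing pools was 0.57 for RPL36AL, 0.50 for RPS27L, 0.31 for RPL26L1, -0.29 for RPL7L1 and -0.46 for RPL22L1. The added 1 alters such ratios where a partner has a low level, and the RPL26L1 ratios overlapped in RPKM but not on this scale. For RPS27L the log2 ratio was 3.82 and 3.81 in low-performing pools 1 and 2, against 3.72, 2.5 and 3.72 in high-performing pools 1, 2 and 3. In exact two-sided permutation tests over the 10 splits of the pools, where p cannot go under 0.1, p was 0.2 for RPL36AL, RPL26L1 and RPL7L1 and 0.5 for RPS27L. Adjusted over the 5 pairs computed, the exact permutation p was 0.25 for RPL36AL, RPL26L1 and RPL7L1, and 0.5 for RPS27L. No p is given for RPL22L1, which passed the filter only through the low-performing pools. The difference for RPL7L1 turned to 0.11 once a trend over length was taken out. The median log2 fold change was 1.12 over the 5 paralogs tested and 0.86 over the 77 canonical genes, within overlapping ranges of 0.28 to 1.76 and 0.06 to 1.75. The 5 include RPL22L1, whose direction the filter fixed. RPS4Y1 and RPS4X, another pair of copies whose names do not end in L, stood at 22.1 and 35.6 RPKM and at 52.2 and 79.7 RPKM in the low-performing pools, and at 17.8 to 21.2 RPKM and at 34.9 to 39.7 RPKM in the high-performing pools. In the table RPS4Y1 lies on chromosome 23.

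**Figure D4:**
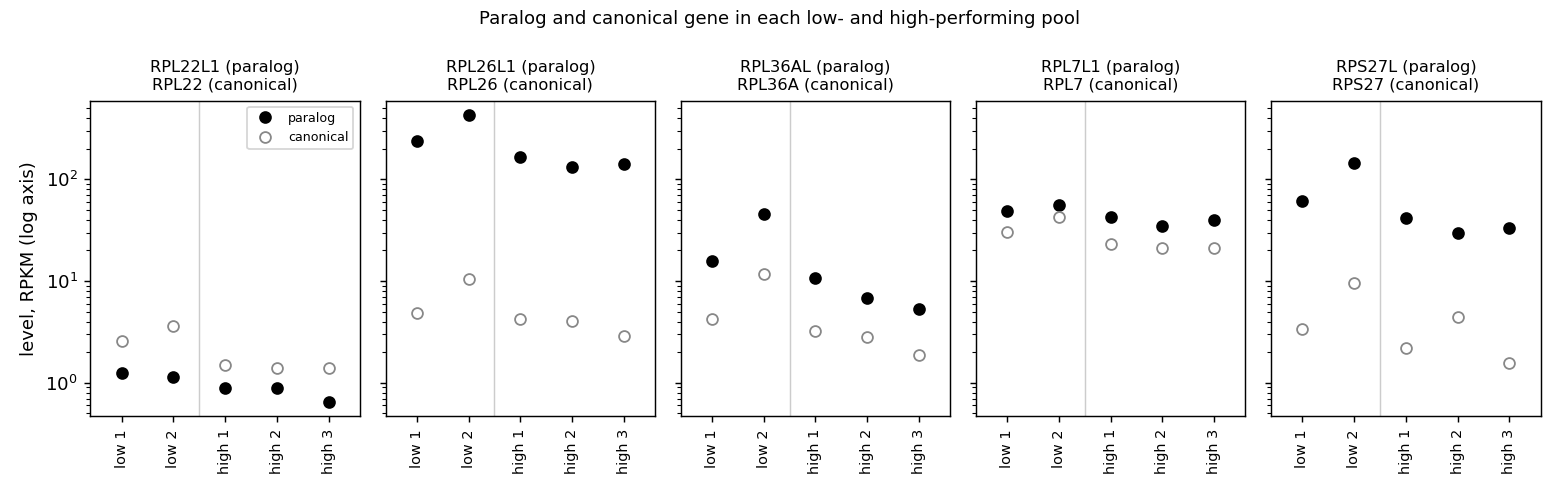
Level in RPKM (log axis) of 5 paralogs (filled) and their canonical partners (open) in each low-performing and high-performing pool. The filled points lie above the open ones in every pool for RPL26L1, RPL36AL, RPL7L1 and RPS27L, and below them for RPL22L1.

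Short members stood higher than long ones, as short genes did throughout the table. The members tested had a median length of 849 bases, 784.5 for the 40S and 866 for the 60S subunit, against 2330 for all genes tested. For members of up to 600 bases the median log2 fold change was 1.10 over 24 genes, against 0.47 for all 823 genes of that length. For 601 to 1000 bases it was 0.96 over 25 members, against 0.49 for all 870 genes, and for 1001 to 1500 bases it was 0.85 over 19 members, against 0.30 for all 1601 genes. For 1501 bases and over it was 0.65 over 14 members, against -0.11 for all 9154 genes. The members thus lay above the median of their length class in each of the 4 classes, although these classes include the members themselves. In these classes, shortest first, both low-performing pools lay above every high-performing pool in 83.3%, 92.0%, 78.9% and 92.9% of members. Among all genes of those classes it was 53.1%, 62.0%, 55.6% and 19.6%. At an unadjusted limma p under 0.05, 83.3%, 88.0%, 73.7% and 78.6% of members were higher, against 49.5%, 54.9%, 41.5% and 8.93% of all genes. The class of 1001 to 1500 bases holds RPL22L1, whose direction the filter fixed. Spearman's rho between length and log2 fold change was -0.43 over the 82 members and -0.52 over all genes tested, as a description over genes that share libraries. After a loess trend over length was taken out of each pool, the 40S median was 0.57 and the 60S median 0.60, against 0.03 for all genes tested. Both low-performing pools were then above the others in 55 of 82 members, and 74 of 82 lay above 0. The matching shares of all genes were not computed with that trend removed, so these counts have no background beside them. RPL12, which is 597 bases long, was at -0.44 with that trend removed. The part that RNA quality or library preparation plays in the length trend was not tested.

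**Figure D5:**
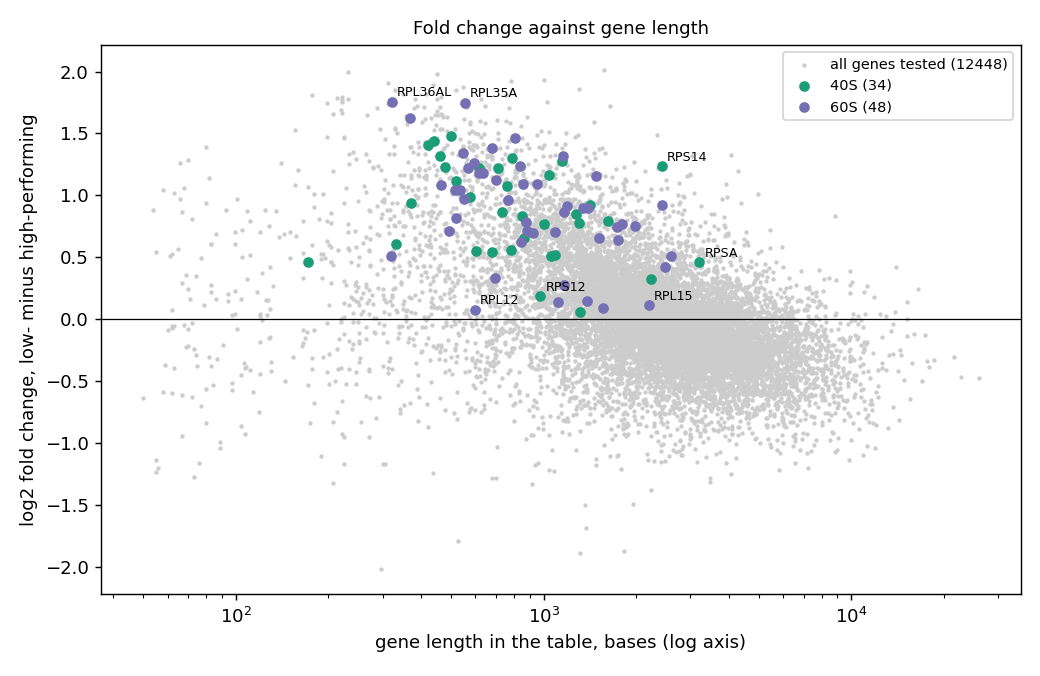
Log2 fold change (mean log2(RPKM + 1), low-performing less high-performing) against gene length in bases (log axis) for all 12448 genes tested (grey), 40S members (green) and 60S members (purple). Most members lie above the bulk of genes of like length, with RPL36AL and RPL35A at the top, and RPL12, RPL15 and RPS12 near 0.

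Lists of factors that work on the ribosome or its messages had medians closer to that of all genes. Of the proteins that belong to or bind it under other names, FAU, the fusion that gives the 40S protein eS30, had 150 and 382 RPKM in low-performing pools 1 and 2, against 99.8, 60.7 and 62.1 RPKM in high-performing pools 1, 2 and 3, for a log2 fold change of 1.72 ± 0.39 (SE). RACK1, a scaffold on the 40S head, had 1.98 and 4.08 RPKM in the low-performing pools, against 2.03, 3.55 and 2.08 RPKM in the high-performing pools, with overlapping groups. None of the genes in the related lists passed limma adjusted over all genes.

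For 12 elongation and release factors the median was -0.13, and the low-performing pools lay wholly above the high-performing pools in 3 and wholly below in 5, where 29.4% of all genes tested lay above and 29.3% below. EEF1A1, which brings aminoacyl-tRNA to the ribosome, had 37.3 and 28.3 RPKM in low-performing pools 1 and 2, against 41.4, 62.3 and 61.4 RPKM in high-performing pools 1, 2 and 3, and EEF1B2, its exchange factor, stood the other way at 0.81 ± 0.21 (SE). Of 17 other mRNAs known or listed to carry a terminal oligopyrimidine tract, around a median of 0.22, 7 lay above and 5 below, against those same shares of 29.4% and 29.3% over all genes. NACA, of the complex that meets nascent chains, had 114 and 173 RPKM in the low-performing pools, against 85.3, 69.3 and 75.7 RPKM in the high-performing pools. COX4I1, a subunit of cytochrome c oxidase, had 34.5 and 68.0 RPKM in the low-performing pools, against 26.9, 19.2 and 19.1 RPKM in the high-performing pools. Both stood higher in low-performing pools, while PABPC1, a poly(A)-binding protein chosen after its values were seen, had 44.0 and 21.7 RPKM in the low-performing pools, against 51.7, 92.5 and 71.8 RPKM in the high-performing pools. Among 16 regulators of these messages the median was -0.07, and LARP1 had 16.2 and 8.67 RPKM in the low-performing pools, against 18.7, 21.0 and 20.9 RPKM in the high-performing pools, for a log2 fold change of -0.72 ± 0.24 (SE). EIF4EBP2, an inhibitor of cap-dependent initiation, stood at -0.75 ± 0.22 (SE).

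Factors that assemble the subunits had medians near that of all genes, 0.02 over 47 genes for the small subunit and 0.07 over 52 genes for the large subunit. Of the small-subunit list, EMG1 stood at 0.74 ± 0.20 (SE) and UTP20 at -0.69 ± 0.19 (SE). Of the large-subunit list, ZNF593 stood at 1.06 ± 0.26 (SE) and NSA2 at 0.97 ± 0.26 (SE). RNA polymerase I and its factors, which transcribe ribosomal RNA, had a median of -0.15 over 16 genes. Its small subunit genes POLR1H and POLR1D stood apart from that median, at 1.25 ± 0.23 (SE) and 0.80 ± 0.17 (SE). Ribosome storage and rescue factors had a median of -0.02 over 10 genes, with CCDC124 and ZNF622 at 0.66 ± 0.28 (SE) and 0.32 ± 0.15 (SE). These lists of factors have median lengths of 2386 to 2592.5 bases, apart from the other oligopyrimidine mRNAs at 1952 bases.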

How the data were processed

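RNA from 5 pools was extracted with a column kit and made into stranded mRNA libraries, per the labels' protocols. Per the submitters' processing notes, featureCounts and edgeR were used with build ARS-UCD1.2; the aligner, versions, strand setting and handling of multiply matching reads were not stated there. In each pool the authors' deposited RPKM, weighted by gene length in kilobases, add up to 1000000, and all values gave whole reads within 0.001. The authors also deposited log2 fold changes, a likelihood ratio score, p-values and FDR, positive where low-performing pools are higher; the score was not used.

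Members and lists were chosen with earlier results of these data known. limma 3.58.1 (R 4.3.3) with an intensity trend was fitted to log2(RPKM + 1) of the 12448 genes with at least 1 RPKM in at least 2 pools, with Benjamini-Hochberg adjustment, two-sided threshold 0.05. Named members were, per subunit, the 3 highest and 3 lowest by level and by fold change, all paralogs with their partners, and a fixed set by role; of each related list, the 2 genes with the smallest p. The alternatives tried were pseudocounts of 0.1 and of 0.5, no filter, a mean of at least 5 RPKM, quantile normalization, a trimmed-mean factor, a loess length trend removed (span 0.5), no intensity trend, library weights, a replicate block, limma voom on whole reads, members with no overlapping gene (chosen after seeing the data), and each pool left out. The fit was tested on simulated data. Some members are not reported here by name and are not drawn in the plots that name genes; counts, sums and medians include them. Figures used matplotlib 3.10.9.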

Additional observations from a re-analysis of the deposited data

How the results depend on the processing

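The medians of the members, of the 40S and of the 60S genes kept their direction under every alternative run, and the 60S minus 40S difference stayed between 0.0007 and 0.07. With each pool left out in turn, the median ranged from 0.49 to 1.30 for the members, 0.47 to 1.27 for the 40S and 0.51 to 1.30 for the 60S genes, the extremes coming without low-performing pool 2 and without low-performing pool 1. Genes called by limma ranged from 0 to 5436 and members called from 0 to 71, with calls only without low-performing pool 1, where the lone low-performing pool is assumed to vary like the others. A fit with the replicate number as a block called 833 genes and 35 members, in place of 0. Deviations of same-numbered pools from their group means had correlations of -0.485 and -0.259. With 2 low-performing pools these deviations mirror each other, so the correlations cannot show whether the numbers pair the pools. The numbers were not taken as pairs. limma voom also called 0. With the length trend removed, log2 fold changes turned to -0.17 for RPS12, -0.16 for RPS9 and RPLP0, -0.03 for RPL4, -0.04 for RPL3 and -0.44 for RPL12, and the ratio difference of RPL7L1 to 0.11. RPS9 also turned to -0.07 under the block, and ranged from -0.27 to 0.39 with single pools left out, being below 0 without low-performing pool 2 (-0.27), high-performing pool 1 (-0.04) or high-performing pool 3 (-0.07). RPL12 turned to -0.0049 under the block and ranged from -0.0049 (without high-performing pool 3) to 0.14 with single pools left out. The cause was not tested. Among the values of single named members under the alternatives, 529 kept direction and call and 12 turned. The rest gained a call, under the block or in the fit without low-performing pool 1, which leaves 1 low-performing pool.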
